A study of Mus musculus with 46 samples.

Results

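Livers of mice that lack Plvap in hepatic stellate cells were compared after 6 weeks of high-fat diet and on normal chow, both after a 12 h overnight fast. The comparison holds 10 of the 46 livers of the series, 5 on high-fat diet (replicates A to E) and 5 on chow (replicates A to E), and every liver with these labels entered it. All 10 mice were male, of strain C57BL/6JBomTac, with the allele Plvaptm1.1Salm and the transgene Tg(Lrat-cre)1Rshw, and their livers had been snap-frozen. The high-fat mice drank normal water. Age was not given in the labels used here. Lrat-Cre drives the deletion in cells that store vitamin A, so the other cells of these livers keep the gene. The 2 diets stand in separate count tables, so that an effect of diet and any difference between the tables cannot be told apart in this comparison.

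Values of 3 other groups of the same line are given beside the knockouts where they bear on a gene. They are high-fat littermate controls (n = 5), chow littermate controls (n = 6) and knockouts given western diet with fructose in the water for 6 weeks (n = 4), all fasted for 12 h. The western-diet knockouts share a table with the high-fat knockouts. The same change of diet in controls spans the same pair of tables, and it shares no liver with the comparison in knockouts. Total RNA was sequenced in bulk, and the compared libraries held 10822048 to 18821804 counts in genes (high-fat knockouts 10822048 to 18821804, chow knockouts 14088040 to 18708646). Levels are TMM-normalised counts scaled to library size (CPM). Log2 fold changes are high-fat diet over chow with their standard error, and adjusted p values are from the quasi-likelihood F-test of edgeR with Benjamini-Hochberg adjustment over all 13807 genes tested, with 0.05 as the threshold for a call.

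Plvap encodes a membrane protein that forms the thin diaphragms of endothelial fenestrae and caveolae, and hepatic stellate cells are the pericytes of the liver sinusoid. A fasting liver takes up fatty acids released by adipose tissue and burns them in mitochondria and peroxisomes under the transcription factor PPARA. It also breaks down amino acids for glucose under glucagon and glucocorticoids, and disposes of their nitrogen through the urea cycle. A high-fat diet supplies more of its energy as fat than chow does. Many of the same genes also follow the time of day, through the hepatic clock.

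Plvap (GRCm39 chr8:71950409-71964396, minus strand) served as the check of the labels. It had 4.92, 6.47, 8.34, 4.87 and 10.8 CPM in the high-fat knockouts, against 6.92, 4.41, 5.83, 4.75 and 5.62 CPM in the chow knockouts (replicates A to E in each). The groups overlapped, and the difference did not pass (log2 fold change 0.37 ± 0.19, adjusted p 0.176; exact two-sided permutation p 0.254). The high-fat knockouts stood at 25.0% of the high-fat controls (7.08 ± 2.51 against 28.3 ± 3.58 CPM, SD; exact permutation p 0.00794), and the chow knockouts at 20% of the chow controls (5.51 ± 0.988 against 27.5 ± 4.65 CPM; exact permutation p 0.00217). Each of these p values against controls is the smallest its design allows. Over the 1000 most variable genes, the first principal component (37.2% of the variance) held the high-fat knockouts between 2 and 26.8 and the chow knockouts between -24.6 and -5.9. The second (17.3%) split the high-fat knockouts themselves, with replicates A and E at 13.5 and 23.5 and B, C and D between -18.8 and -13.4. No source says whether the animals were littermates across diets, so p values measure spread between livers only. For edgeR that spread was estimated over all 30 fasted livers of 6 groups of the line, not over the 10 compared livers alone. Western-diet littermate controls (n = 5) were among those groups.

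Between high-fat and chow knockouts 2434 of 13807 genes were called (17.6%), of which 1138 were higher on high-fat diet (8.24%) and 1296 lower (9.39%). More than 2-fold changes were seen in 242 of those higher and 144 of those lower. Libraries of the groups did not overlap for 1320 genes (9.56% of those tested), 1134 of them called. The median log2 fold change over all genes was 0.007. Scaling by upper quartiles gave 1404 higher and 1008 lower and moved that median to 0.051, while leaving out chow knockout D gave 710 and 723. In the controls the same change of diet called 1306 genes (9.46%), 627 higher (4.54%) and 679 lower (4.92%). The smaller number in controls depends on the method. Under limma-voom, knockouts had 1092 genes higher and 1289 lower, and controls 1157 and 1171. High-fat and western-diet knockouts differed at 1680 genes (12.2%), 672 higher (4.87%) and 1008 lower (7.3%) on high-fat diet. The gene lists plotted by called members show where the calls of the knockouts lay. Each count of list members below stands against 8.24% of all genes higher and 9.39% lower. A count near those shares says nothing particular about its list. The lists were chosen with earlier results of these data known, so a share above them is a description and no independent support.

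**Figure D1:**
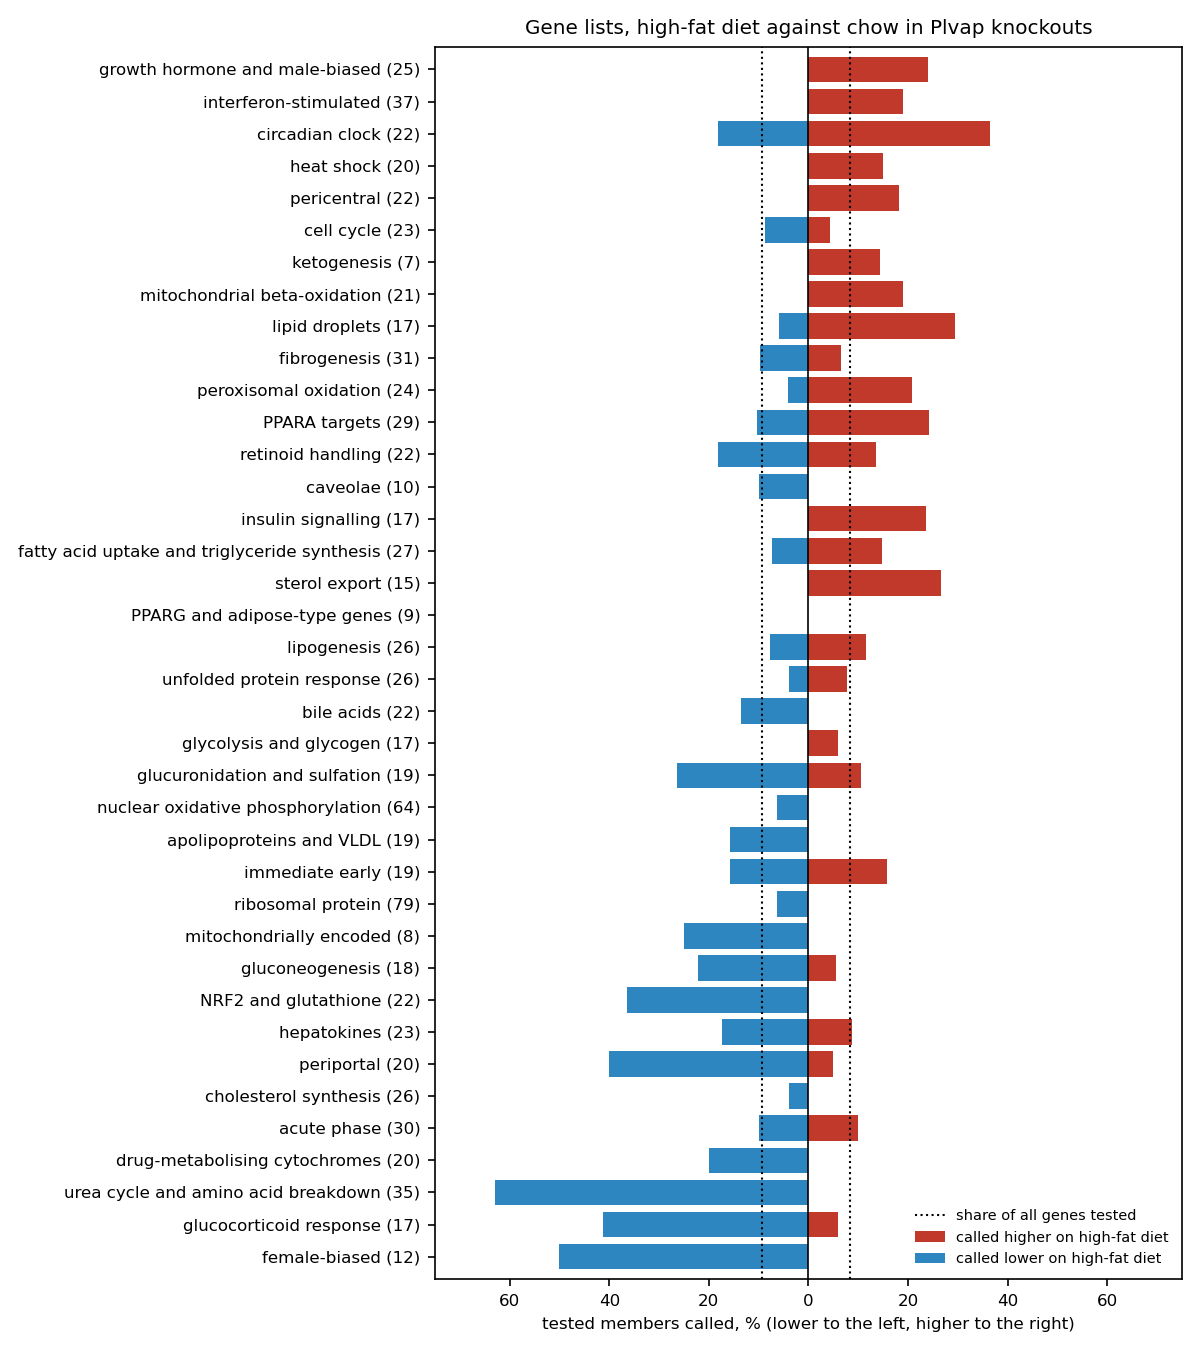
Share of the tested members of 38 gene lists called higher (bars to the right, %) or lower (bars to the left, %) in high-fat knockouts against chow knockouts, with lists ordered by their median log2 fold change and the number of tested members in brackets. Dotted lines mark the share of all genes called in each direction, 8.24% and 9.39%. The lists were chosen with earlier results of these data known. Amino acid breakdown reached 62.9% lower, and the clock list held calls in both directions. The bar of the female-biased list is not read here, because Cyp3a44 passed the filter on low counts mainly through chow livers.

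The genes that rose most encode proteins of varied roles. Nrep, a small neuronal and wound-associated protein, had 45.9, 6.61, 97.1, 38.6 and 26.3 CPM in high-fat knockouts A to E, against 4.70, 4.72, 6.10, 5.76 and 4.74 CPM in chow knockouts A to E. All 5 high-fat livers stood above all chow livers, replicate B only just, and the log2 fold change was 3.04 ± 0.58 (adjusted p 0.00136). In controls Nrep rose too (2.27 ± 0.52, adjusted p 0.00773), and western-diet knockouts had 13.2 ± 8.74 CPM. Ces4a, a carboxylesterase, had 5.33, 15.4, 17.8, 14.6 and 3.00 CPM in high-fat knockouts and 1.57, 0.697, 2.08, 1.96 and 1.05 CPM in chow knockouts (2.90 ± 0.50, adjusted p 0.000522). High-fat replicates A and E were the lowest of their group for this gene. Its level in western-diet knockouts was 2.62 ± 1.74 CPM, and high-fat and western-diet knockouts differed (2.06 ± 0.51, adjusted p 0.0132).

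Prok1, a secreted prokineticin, had 5.03, 4.11, 7.66, 6.65 and 6.75 CPM in high-fat knockouts, against 0.588, 1.01, 1.34, 1.33 and 0.703 CPM in chow knockouts, a separation without overlap (2.60 ± 0.37, adjusted p 8.22e-05). It rose by 3.06 ± 0.35 in controls (adjusted p 2.04e-06), and it was higher in high-fat than in western-diet knockouts (6.04 ± 1.44 against 2.61 ± 1.25 CPM, adjusted p 0.0295). Hsd3b5, a male-specific steroid dehydrogenase of mouse liver, had 393, 328, 644, 381.4 and 314 CPM, against 79.1, 40.3, 148, 82.8 and 33.4 CPM on chow (2.43 ± 0.45, adjusted p 0.001). The high-fat livers stood above all chow livers, with replicate C far above the others. Chac1, which degrades glutathione and is induced by ATF4, rose by 2.61 ± 0.51 (10.99 ± 4.89 against 1.76 ± 1.01 CPM), and the stress-induced gene Gadd45a by 2.46 ± 0.44 (3.88 ± 2.06 against 0.698 ± 0.452 CPM). The other genes of the 10 largest rises were Chad (chondroadherin, a matrix protein), Kcnk10 (a potassium channel), Serpina3c (a protease inhibitor) and the clock output gene Dbp, described below. Chad and Kcnk10 rose by 2.61 ± 0.56 and 2.32 ± 0.41 from means under 1 CPM on chow. Serpina3c had 0.41, 0.905, 3.73, 2.34 and 0.59 CPM in high-fat knockouts, against 0.327, 0.155, 0.335, 0.316 and 0.41 CPM in chow knockouts (2.27 ± 0.58). High-fat replicate A and chow replicate E met at the boundary of the groups, and the call was lost under limma-voom.

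Among the largest falls, Cyp3a11 (GRCm39 chr5:145791236-145816774, minus strand), a cytochrome P450 that oxidises drugs and steroids and is induced through the receptor PXR, showed the largest fall in mean CPM of all called genes. It had 750.1, 102, 156, 272 and 494 CPM in high-fat knockouts A to E, against 3247, 5187, 4662, 4709 and 6690 CPM in chow knockouts A to E. The groups did not overlap, and the log2 fold change was -3.79 ± 0.57 (adjusted p 0.000189). In controls the fall was of like size (342 ± 206 CPM on high-fat diet against 4798 ± 1170 CPM on chow, -3.81 ± 0.56). Western-diet knockouts, of the same table as the high-fat ones, had 2721 ± 1181 CPM, and the high-fat knockouts stood below them (-2.94 ± 0.56, adjusted p 0.00451). Slco1a4, a hepatic uptake transporter for organic anions and bile acids, had 22.7, 37.5, 15.9, 18.1 and 22.3 CPM, against 117, 225, 93.1, 165 and 234 CPM (-2.84 ± 0.48, adjusted p 0.000522). Ugt1a9, a glucuronosyltransferase that shares exons with its neighbours Ugt1a1 and Ugt1a5, fell by 2.26 ± 0.34 (4.86 ± 2.64 against 22.6 ± 6.10 CPM).

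Nipal1, a magnesium transporter, had 2.51, 10.4, 0.542, 3.19 and 3.06 CPM in high-fat knockouts, against 30.1, 37.2, 18.4, 37.6 and 33.5 CPM in chow knockouts (-3.00 ± 0.73, adjusted p 0.00701). Gadd45b, a stress and growth arrest gene, had 1.23, 4.32, 2.24, 2.81 and 1.82 CPM, against 7.90, 10.8, 14.1, 14.9 and 13.7 CPM (-2.33 ± 0.45). Fam19a2, a secreted chemokine-like protein also named Tafa2, was nearly absent on high-fat diet, with 6 counts over 5 livers against 240 counts over the 5 chow livers (-5.21 ± 0.77, adjusted p 0.000127). It passed the filter on low counts mainly through the chow knockouts. A difference was thus built into its being tested, and its p value is no support for the fall. In controls its mean was 0.103 ± 0.129 CPM on high-fat diet and 0.332 ± 0.34 CPM on chow, and that change did not pass (adjusted p 0.324).

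**Figure D2:**
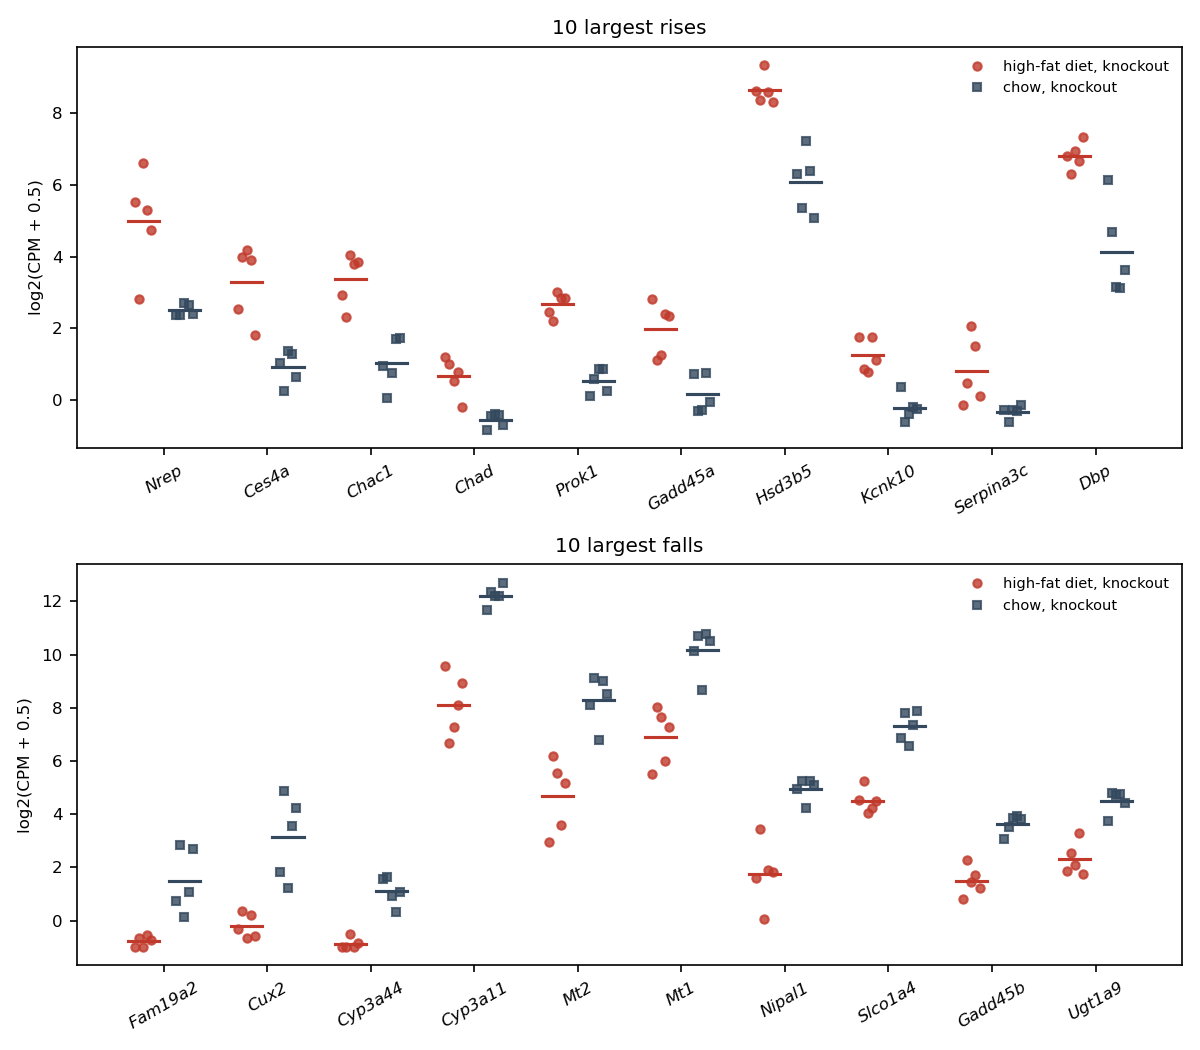
Level of the 10 genes with the largest rises (top) and falls (bottom) in each high-fat knockout (circles) and chow knockout (squares), as log2(CPM + 0.5), with lines at the group means. The groups do not overlap for any of the 20 genes, which was a condition for naming them. Nrep and Serpina3c come closest. Fam19a2 and Cyp3a44 passed the filter on low counts mainly through chow livers.

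Genes of amino acid breakdown fell together. Of 35 genes of the urea cycle and amino acid breakdown, all tested, 22 were lower in high-fat than in chow knockouts and none was higher, with a median log2 fold change of -0.56 (all genes: 9.39% lower, median 0.007). In controls 21 of the 35 were lower and none higher, with a median of -0.69. Within the urea cycle itself, Asl (GRCm39 gene ENSMUSG00000025533), which cleaves argininosuccinate into arginine and fumarate, had 318, 692, 399, 515 and 347 CPM in high-fat knockouts A to E, against 742, 1528, 795, 1241 and 1220 CPM in chow knockouts A to E. The highest high-fat liver, B, stayed below the lowest chow liver, A, and the log2 fold change was -1.28 ± 0.29 (adjusted p 0.00358). Arg1, which releases urea from arginine, had 1135, 2509, 1363, 1558 and 1271 CPM, against 2358, 3122, 2134, 3475 and 3435 CPM (-0.89 ± 0.23, adjusted p 0.00806). High-fat replicate B lay among the chow livers for this gene. The cycle's entry enzyme Cps1, which makes carbamoyl phosphate, had 2097 ± 718 CPM on high-fat diet and 3523 ± 757 CPM on chow (SD, n = 5 each; -0.75 ± 0.23, adjusted p 0.0217).

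Further steps of the same pathway fell. Ass1, which joins citrulline to aspartate, fell by 0.74 ± 0.20, the ornithine carrier Slc25a15 fell by 0.64 ± 0.17, and Nags, which makes the activator of Cps1, fell by 0.41 ± 0.14. Ammonia-releasing enzymes were lower too, with Gls2, the liver glutaminase, at -0.59 ± 0.15, Sds, which deaminates serine, at -1.14 ± 0.36, and its relative Sdsl at -1.24 ± 0.25 (17.9 ± 6.07 against 42.2 ± 13.5 CPM, no overlap). Glud1, glutamate dehydrogenase, fell least of the 22 (-0.29 ± 0.10, adjusted p 0.0497). Enzymes of the methionine branch fell as well. Mat1a, which makes S-adenosylmethionine, had 2896, 5190, 3242, 3769 and 2684 CPM in high-fat knockouts, against 4884, 7189, 5743, 7647 and 7759 CPM in chow knockouts (-0.90 ± 0.21), Gnmt, which uses it up, fell by 0.80 ± 0.20, Cbs fell by 0.48 ± 0.15 and Cth, which makes cysteine, fell by 1.32 ± 0.36 (594 ± 396 against 1484 ± 468 CPM). In Mat1a and Cth, too, high-fat replicate B was the highest of its group and overlapped the chow livers.

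Transaminases and ring-cleaving enzymes fell too. Tat, tyrosine aminotransferase and a classical glucocorticoid target, had 376, 1857, 422.2, 629.8 and 1013 CPM, against 1438, 2408, 1319, 2985 and 3413 CPM (-1.43 ± 0.41, adjusted p 0.0193), with replicate B again highest on high-fat diet and the groups overlapping. Got1, cytosolic aspartate aminotransferase, fell by 1.42 ± 0.36 (192 ± 92.3 against 512 ± 186 CPM), Tdo2, which opens the tryptophan ring, fell by 0.58 ± 0.16 and Hal, which deaminates histidine, fell by 0.73 ± 0.23. Of 20 periportal genes 8 were lower and 1 was higher, and apart from Etnppl those lower also stand in the amino acid list. Etnppl, a phosphoethanolamine lyase of periportal hepatocytes, had 31.9, 82.0, 22.6, 29.1 and 30.02 CPM, against 118, 198, 146, 228 and 116 CPM (-2.04 ± 0.40, adjusted p 0.00169), and Hsd17b6, which rose, is a steroid and retinol dehydrogenase (1.1 ± 0.34). Of 18 gluconeogenesis genes 4 were lower, Tat, Got1, Sds and the gluconeogenic phosphatase Fbp1 (-0.41 ± 0.13), and 1 higher, the fasting-induced factor Creb3l3 (0.37 ± 0.11).

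Western-diet knockouts, in the same table as the high-fat ones, bear on 2 of the urea cycle genes. Asl had 454 ± 153 CPM in high-fat and 451 ± 104 CPM in western-diet knockouts (0.01 ± 0.30, adjusted p 0.986), and Arg1 1567 ± 548 and 1778 ± 383.7 CPM (-0.18 ± 0.24, adjusted p 0.661). Both comparisons use the same high-fat livers. The count of 22 fell to 11 without high-fat knockout A, 13 without C and 14 without D, and to 10 without chow knockout D and 14 without E. The 8 periportal falls were 5 without high-fat knockout A or E or chow knockout B or D, and the 4 gluconeogenic ones were 7 without high-fat knockout B, 2 without D or E or chow knockout B, and 1 without high-fat knockout A or chow knockout D or E. The counts of 1 higher were 0 as well, the periportal one without high-fat knockout A or E or chow knockout B, D or E and the gluconeogenic one without high-fat knockout D or chow knockout B or D.

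**Figure D3:**
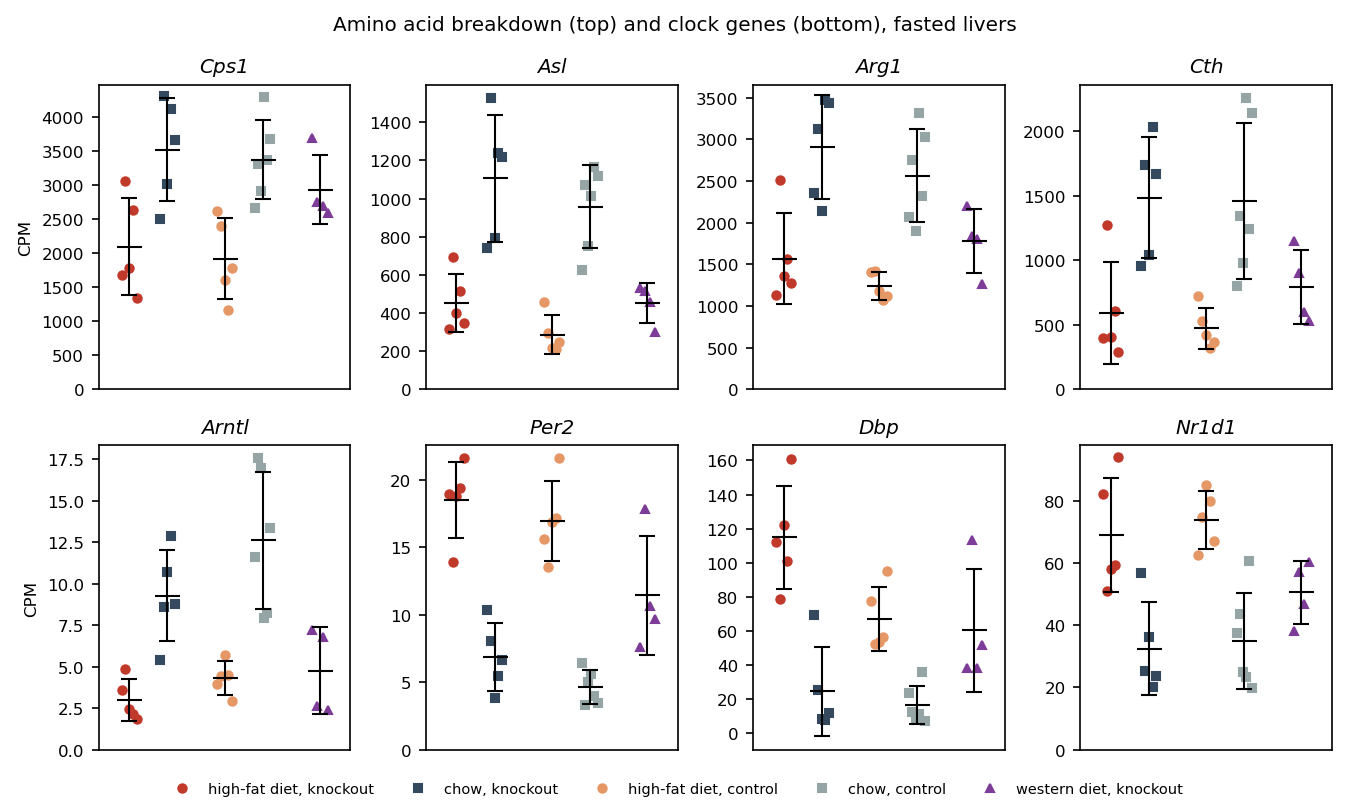
Level in CPM of 4 genes of amino acid breakdown (top) and 4 clock genes (bottom) in each liver of 5 groups, from left to right high-fat knockouts, chow knockouts, high-fat controls, chow controls and western-diet knockouts, with means and SD. Asl separates high-fat from chow livers in knockouts, Arntl is lower and Per2 and Dbp are higher on high-fat diet, and chow knockout A is the highest chow knockout for Dbp.

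Several genes that glucocorticoids induce in liver were lower on high-fat diet. Of 17 tested, 7 were lower and 1, Pik3r1, was higher, with a median log2 fold change of -0.87; in controls 6 were lower and 1 higher. The largest falls were in the metallothioneins, cysteine-rich zinc and copper binding proteins induced by metals through MTF1 and by glucocorticoids. Mt1 had 45.2, 260.3, 199, 63.7 and 153 CPM in high-fat knockouts A to E, against 1118, 1671, 404.4, 1746 and 1447 CPM in chow knockouts A to E. The groups did not overlap, chow replicate C being the lowest of the chow livers (-3.15 ± 0.67, adjusted p 0.00275). Mt2 had 7.28, 71.8, 46.5, 11.5 and 35.1 CPM, against 271, 552, 109.6, 515 and 369 CPM (-3.40 ± 0.77, adjusted p 0.00443). Replicates A and D were lowest on high-fat diet for both genes, and replicate C lowest on chow. In controls Mt1 fell by 2.09 ± 0.62 (adjusted p 0.0359) and Mt2 had a log2 fold change of -2.24 ± 0.73 that did not pass (adjusted p 0.0516). High-fat knockouts averaged 144 ± 90.7 CPM of Mt1, chow knockouts 1277 ± 546 CPM and western-diet knockouts 489.6 ± 412.7 CPM.

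The promoters of this pair are shown because both fell together, each from 250 bases before to 50 after the gene's start in RefSeq (GRCm38.p6; Mt1 chr8:94178839-94179138, Mt2 chr8:94172368-94172667, both plus strand, written 5′ to 3′). Capitals mark matches to the core of the metal response element, spelled TGCACNC or TGCGCNC and sought on both strands, of which Mt1 holds 3 and Mt2 holds 4.
Mt1: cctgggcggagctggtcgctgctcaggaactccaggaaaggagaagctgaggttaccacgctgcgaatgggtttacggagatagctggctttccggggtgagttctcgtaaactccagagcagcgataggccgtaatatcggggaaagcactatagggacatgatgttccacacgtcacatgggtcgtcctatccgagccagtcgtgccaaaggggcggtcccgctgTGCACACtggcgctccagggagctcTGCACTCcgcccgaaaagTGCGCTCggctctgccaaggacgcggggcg
Mt2: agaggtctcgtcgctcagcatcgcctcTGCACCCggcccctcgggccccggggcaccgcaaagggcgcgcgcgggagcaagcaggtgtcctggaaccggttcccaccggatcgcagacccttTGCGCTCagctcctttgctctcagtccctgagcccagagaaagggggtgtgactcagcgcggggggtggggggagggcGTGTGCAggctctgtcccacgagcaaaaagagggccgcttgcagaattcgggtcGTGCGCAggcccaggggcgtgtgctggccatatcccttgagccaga
Of 32851 such promoter windows 25.7% hold at least 1 match and 7.11% at least 2. A match is a run of letters and no measure of binding.

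Of the other called glucocorticoid targets all but Pik3r1 were lower. Cdkn1a, which encodes the cell cycle inhibitor p21, had 4.10, 13.1, 2.31, 2.06 and 13.9 CPM in high-fat knockouts, against 9.14, 48.9, 28.0, 47.0 and 62.5 CPM in chow knockouts (-2.44 ± 0.59, adjusted p 0.00701). Ddit4, an inhibitor of mTORC1, had 1.95, 17.7, 3.80, 3.19 and 17.9 CPM, against 12.5, 69.5, 11.5, 99.2 and 70.9 CPM (-2.55 ± 0.68, adjusted p 0.0122). In both, high-fat livers B and E were the highest of their group, and they overlapped the lowest chow livers, replicate A for Cdkn1a and replicates A and C for Ddit4. The kinase gene Sgk1 fell by 0.93 ± 0.27 and the phosphatase gene Dusp1 fell by 0.87 ± 0.30, while Pik3r1, a regulatory subunit of PI3-kinase, rose by 0.61 ± 0.21. In controls the changes of Cdkn1a (-2.42 ± 0.63) and Ddit4 (-2.50 ± 0.71) were of like size. The call of Pik3r1 was lost in 10 of 22 alternatives, among them without high-fat knockout A, C or E or chow knockout C, D or E. The 7 falls were 4 without high-fat knockout A or C or chow knockout D, and 2 when the fit held the compared groups alone.

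Of 22 clock genes 8 were higher and 4 lower in high-fat than in chow knockouts (8.24% and 9.39% of all genes), and in controls 6 and 3. The loop's activators and their targets moved in opposite directions. Arntl (Bmal1), the activator that binds E-boxes with Clock, had 3.59, 4.87, 2.44, 2.15 and 1.82 CPM in high-fat knockouts, against 5.42, 8.59, 10.7, 12.8 and 8.79 CPM in chow knockouts, without overlap (-1.63 ± 0.32, adjusted p 0.0012). Clock fell by 0.52 ± 0.14 and the activator of Arntl, Rora, fell by 0.39 ± 0.11. Noct, a phosphatase that cycles with the clock, fell by 1.39 ± 0.38 in knockouts and had a log2 fold change of -0.06 ± 0.36 in controls that did not pass; the difference between genotypes did not pass either (adjusted p 0.441).

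Several genes that the activators switch on were higher. Per2, a repressor of the loop, had 18.9, 13.9, 18.8, 19.4 and 21.7 CPM, against 10.4, 8.05, 3.82, 5.44 and 6.68 CPM, without overlap (1.43 ± 0.26, adjusted p 0.000683), and its relative Per3 22.5, 16.4, 21.7, 24.2 and 18.0 CPM, against 10.6, 10.6, 2.61, 3.48 and 5.56 CPM (1.65 ± 0.44). Dbp, a PAR bZIP output factor whose exons overlap those of Sphk2, had 112, 78.7, 122, 101 and 161 CPM, against 69.3, 25.5, 8.38, 8.16 and 11.8 CPM (2.22 ± 0.55, adjusted p 0.00755). The chow livers spread widely here, and chow replicate A, with the highest Dbp, Nr1d1 and Bhlhe41 and the lowest Arntl of its group, stood nearest to the high-fat livers. The repressor Nr1d1 (REV-ERBα) rose by 1.09 ± 0.29 (69.03 ± 18.2 against 32.4 ± 14.98 CPM), Bhlhe41 (DEC2) by 2.16 ± 0.50, Wee1, a kinase of the cell cycle, by 1.62 ± 0.47, Tef, a relative of Dbp, by 0.75 ± 0.19 and the repressor Cry2 by 0.84 ± 0.22. Western-diet knockouts lay between the groups, with 11.4 ± 4.43 CPM of Per2 and 60.4 ± 35.9 CPM of Dbp, and neither gene differed from the high-fat knockouts by the test (adjusted p 0.0893 and 0.288). The labels used here give no hour of collection. The 4 falls were 2 without chow knockout D.

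A promoter from each arm is shown, since the arms moved in opposite directions: Bhlhe41, which rose (GRCm38.p6 chr6:145865371-145865670, minus strand), with the E-box CACGTG in capitals, and Arntl, which fell (second of 2 windows, chr7:113207261-113207560, plus strand), with the letters TAGGTCA, a core of the ROR and REV-ERB element (TGGGTCA was sought as well), in capitals.
Bhlhe41: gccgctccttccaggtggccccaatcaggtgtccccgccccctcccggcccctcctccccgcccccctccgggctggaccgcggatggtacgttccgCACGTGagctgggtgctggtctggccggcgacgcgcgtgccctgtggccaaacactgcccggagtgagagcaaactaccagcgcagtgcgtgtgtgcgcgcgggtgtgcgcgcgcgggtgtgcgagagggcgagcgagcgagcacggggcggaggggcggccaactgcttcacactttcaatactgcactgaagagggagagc
Arntl: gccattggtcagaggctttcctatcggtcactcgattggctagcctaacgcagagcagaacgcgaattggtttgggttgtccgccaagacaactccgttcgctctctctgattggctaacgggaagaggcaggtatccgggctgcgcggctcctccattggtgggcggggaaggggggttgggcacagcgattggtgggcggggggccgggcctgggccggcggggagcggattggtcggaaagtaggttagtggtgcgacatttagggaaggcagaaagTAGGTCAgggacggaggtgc
The E-box stood in windows of 2 of the 6 genes looked up that have one, Bhlhe41 and Tef, and not in those of Dbp, Per3, Nr1d1 and Cry2; 7.15% of all windows hold it. The ROR element stood in 1 of 4 genes (Arntl, Clock, Npas2 and Cry1) and in 6.45% of all windows. Such short windows leave out most regulatory sequence of these genes.

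Drug metabolism and antioxidant genes were lower on high-fat diet beyond Cyp3a11. Of 20 drug-metabolising cytochromes 4 were lower and none higher (median -0.47; in controls 6 lower). Cyp3a25 averaged 330.4 ± 117 CPM in high-fat knockouts and 954 ± 87.2 CPM in chow knockouts, without overlap (-1.53 ± 0.23, adjusted p 0.000149). Cyp3a13 fell by 0.86 ± 0.25 and the low Cyp2c55 fell by 2.09 ± 0.45. Cyp3a genes are close copies of each other, so reads may have been shared or lost between them. Of 19 genes of glucuronidation and sulfation 5 were lower, among them Ugdh, which makes UDP-glucuronate (-0.74 ± 0.16), and the transferases Ugt2b5 (-0.78 ± 0.17) and Ugt2b36 (-0.67 ± 0.17), and 2 were higher (Sult5a1 and Papss1). The 2 rises were 0 without high-fat knockout A and 1 without any other single knockout but high-fat B. Of 22 bile acid genes 3 were lower (13.6%, against 9.39% of all genes). They were Slco1a4, the oxysterol hydroxylase Cyp39a1 (-1.29 ± 0.27) and Baat, which conjugates bile acids to taurine (-0.56 ± 0.14). The bile acid falls were 6 without high-fat knockout B and 5 without chow knockout A.

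Of 22 NRF2 and glutathione genes 8 were lower and none higher, with a median of -0.31 (controls: 9 lower, none higher). NRF2, encoded by Nfe2l2, switches on enzymes that detoxify electrophiles. Cbr1, a carbonyl reductase, had 51.6, 73.4, 53.5, 57.2 and 59.1 CPM, against 100.5, 132, 111, 119 and 124 CPM, without overlap (-0.99 ± 0.15, adjusted p 0.000149). Gstm1, a glutathione transferase of a family of close copies, had 248, 257, 204, 179 and 359 CPM, against 538, 483, 429.9, 396 and 463 CPM (-0.89 ± 0.21, adjusted p 0.00524). Gsta2 fell by 1.39 ± 0.40, Gstm3 fell by 1.44 ± 0.47, Nqo1 fell by 0.98 ± 0.28, Gclm, which limits glutathione synthesis, fell by 0.48 ± 0.12, and Nfe2l2 itself fell by 0.52 ± 0.14. Cbr1, Gstm1 and Nqo1 had no call between high-fat and western-diet knockouts (adjusted p 0.315, 0.478 and 0.974), while Gclm and Nfe2l2 were lower in high-fat than in western-diet knockouts (-0.41 ± 0.12 and -0.49 ± 0.15, adjusted p 0.0261 and 0.0269), the 2 of the 22 called in that comparison.

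Many genes of mouse liver differ between the sexes because males secrete growth hormone in pulses. Of 25 genes that act in growth hormone signalling or are male-biased 6 were higher and none lower, with a median of 0.46 (controls: 4 higher, 1 lower, median 0.10). Selenbp2, a selenium-binding protein, had 693, 499, 996, 857 and 645 CPM in high-fat knockouts, against 262, 251, 296, 372 and 286 CPM in chow knockouts (1.33 ± 0.20, adjusted p 0.000149). It was also higher than in western-diet knockouts (1.38 ± 0.22, adjusted p 0.00149), but the list as a whole had 2 members higher, 1 lower and a median of -0.01 in that comparison. Mup21, a major urinary protein of a family of close copies, had 379.5, 144, 216, 272 and 158 CPM, against 80.5, 82.3, 114, 134 and 83.0 CPM (1.25 ± 0.26). Mup20 rose by 0.80 ± 0.20, the omega-hydroxylase Cyp4a12a by 0.91 ± 0.28, the IGF carrier Igfals by 0.39 ± 0.14, and Hsd3b5 as given above. Against western-diet knockouts Mup21 and Mup20 had log2 fold changes of -0.65 ± 0.27 and -0.62 ± 0.21 (adjusted p 0.104 and 0.0506).

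Of 21 female-biased genes 12 passed the filter on low counts. Cyp3a44 reached it mainly through its chow livers, so that a difference was built into its being tested. The plot of gene lists draws this list too, but its bar is not read, and the text gives no count of calls over it. Cux2, a female-specific repressor of male genes, had 0.308, 0.766, 0.136, 0.656 and 0.161 CPM on high-fat diet, against 3.00, 28.6, 1.81, 11.3 and 18.2 CPM on chow (-5.02 ± 0.94, adjusted p 0.00107; the call was lost under limma-voom). Chow replicates B, D and E carried most of its level. Prlr, the prolactin receptor, had 64.6, 69.6, 50.3, 59.9 and 59.8 CPM, against 127, 169.8, 88.0, 141 and 157 CPM (-1.17 ± 0.22, adjusted p 0.000918), and Fmo2, a flavin monooxygenase, fell by 1.24 ± 0.25. Cyp3a44 had 4 counts over the high-fat livers, against 131 counts over the chow livers. In controls Prlr had 70.4 ± 18.6 CPM on high-fat diet and 86.9 ± 13.8 CPM on chow, a change that did not pass; the difference of the diet effect between genotypes did not pass for Prlr or Cux2 (adjusted p 0.391 and 0.534).

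Genes of fatty acid use rose in part. Of 29 PPARA targets 7 were higher and 3 lower, with a median of 0.15. Acaa1b, a peroxisomal thiolase, had 1557, 1038, 704, 1263 and 1546 CPM in high-fat knockouts A to E, against 552, 269.8, 978, 311 and 334 CPM in chow knockouts A to E, with chow replicate C among the high-fat livers (1.32 ± 0.29, adjusted p 0.00327). In controls Acaa1b had 1074 ± 184 CPM on high-fat diet and 1005 ± 267 CPM on chow (0.10 ± 0.28, adjusted p 0.873), and western-diet knockouts had 1256 ± 198 CPM. Its near copy Acaa1a rose by 0.56 ± 0.11.

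Fabp1, the liver fatty acid binding protein, had 6286, 3648, 6248, 6016 and 5052 CPM in high-fat knockouts, against 3947, 1309, 4998, 2616 and 2534 CPM in chow knockouts, overlapping in high-fat replicate B and chow replicates A and C (0.82 ± 0.24, adjusted p 0.0171; not called without chow knockout D, with no filter, or when the fit held the compared groups alone). Mgll, monoacylglycerol lipase, rose by 0.77 ± 0.21 (287 ± 61.8 against 169 ± 63.2 CPM), and Ppara itself by 0.64 ± 0.18. Other PPARA targets fell. Pdk4, which shuts glucose carbon out of mitochondria in fasting, had 3.33, 3.55, 3.46, 6.56 and 3.48 CPM, against 10.2, 8.75, 26.3, 15 and 20.6 CPM (-2.02 ± 0.39, adjusted p 0.00141). Cyp4a14, a fatty acid omega-hydroxylase, had 1064, 1330, 416.1, 2370 and 609.6 CPM, against 2589, 1469, 4241, 3004 and 2146 CPM (-1.22 ± 0.36, adjusted p 0.0212), and Angptl4, a secreted inhibitor of lipoprotein lipase, fell by 0.61 ± 0.20. The 3 falls were 1 without high-fat knockout E or chow knockout C or D.

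Of 21 genes of mitochondrial beta-oxidation 4 were higher and none lower (median 0.20), while in controls none of the 21 was called (median -0.13). They were Acsl1, which activates long-chain fatty acids (0.63 ± 0.18), Eci1, an enoyl-CoA isomerase (0.64 ± 0.14), Hadh (0.47 ± 0.14) and Decr1 (0.31 ± 0.11). The count was 2 without high-fat knockout E, 9 without chow knockout C and 9 under scaling by upper quartiles. Of 24 peroxisomal genes 5 were higher, among them the transporter Abcd3 (0.46 ± 0.13) and Decr2 (0.33 ± 0.10), and 1 lower, the 2-hydroxyacyl-CoA lyase Hacl1, whose exons overlap Btd (-0.91 ± 0.17). Of 7 ketogenesis genes 1 was higher, the ketone reductase Bdh1 (0.52 ± 0.15). Over the 64 genes of these oxidation and PPARA lists that are plotted, 12 were higher and 4 lower in knockouts (median 0.16), and none was higher and 5 were lower in controls (median -0.13). The difference of the diet effect between the genotypes was called for none of the 64, with a lowest adjusted p of 0.258.

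**Figure D4:**
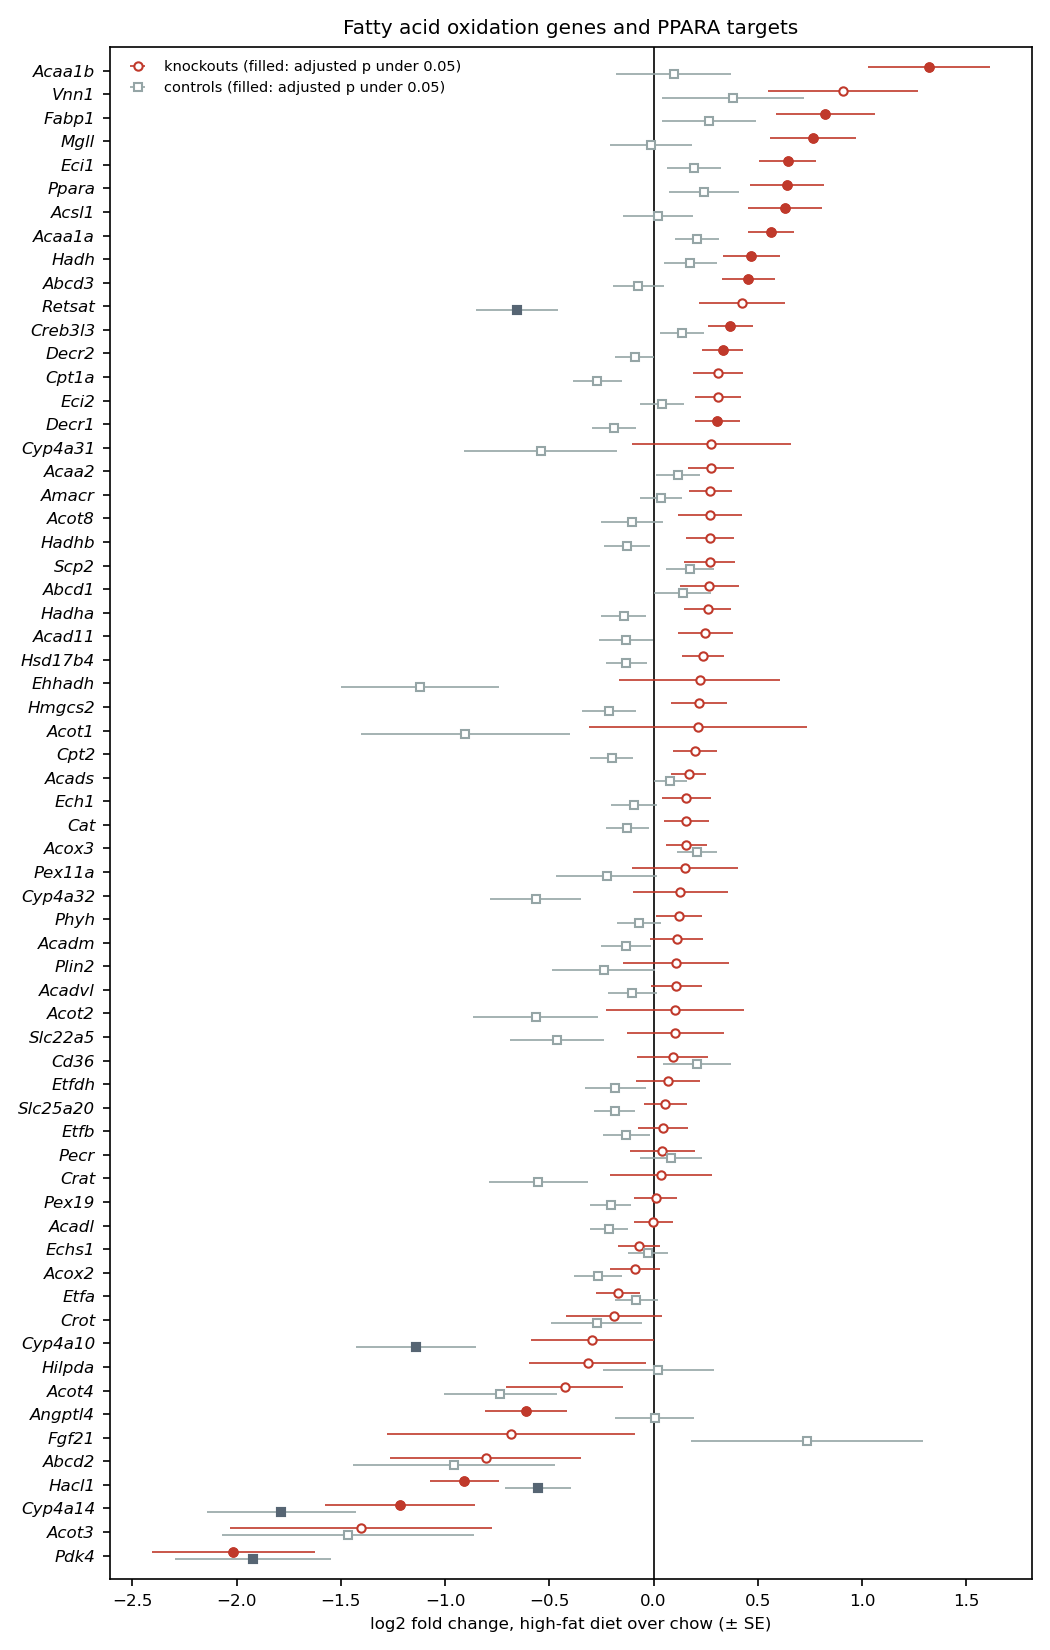
Log2 fold change of high-fat diet over chow, with SE, for 64 tested genes of the PPARA, mitochondrial beta-oxidation and peroxisomal lists, in knockouts (circles) and controls (squares), filled where the adjusted p is under 0.05 and ordered by the value in knockouts. The value in knockouts lies above that in controls for 54 of the 64 genes. That share was not counted over all genes tested, whose median difference was -0.007. The 64 genes rest on the same livers and are no replicates of a difference between genotypes. The pairs of groups share tables but no livers, and no single difference was called.

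Uptake and storage of fat gave calls in both directions. Of 27 genes of fatty acid uptake and triglyceride synthesis 4 were higher and 2 lower (8.24% and 9.39% of all genes). Calls made up 22.2% of this list, against 17.6% of all genes. Slc27a2, the main very long chain acyl-CoA synthetase and transporter of hepatocytes, had 2168, 2252, 2122, 2466 and 2203 CPM in high-fat knockouts, against 1744, 1648, 1891, 1681 and 1391 CPM in chow knockouts, without overlap (0.42 ± 0.10, adjusted p 0.00642). Controls averaged 1807 ± 75.2 CPM on high-fat diet and 1817 ± 48.0 CPM on chow (-0.01 ± 0.10). Slc27a1, another member of that family, had 22.3, 20.3, 11.1, 17.3 and 18.5 CPM, against 8.43, 13.9, 10.9, 8.92 and 8.32 CPM (0.83 ± 0.18, adjusted p 0.00206), where high-fat replicate C lay in the chow range. Acsl3 and Agpat2 were lower (-0.72 ± 0.24 and -0.39 ± 0.12), a count that was 1 without high-fat knockout B or chow knockout A, B or D and 0 without high-fat knockout C or D or chow knockout E. Of 17 lipid droplet genes 5 were higher and 1 lower. Hsd17b11, a droplet-bound dehydrogenase, had 306, 292, 303, 305 and 277 CPM, against 205, 200.3, 262, 171 and 165 CPM (0.56 ± 0.13, adjusted p 0.00304), and western-diet knockouts had more (438 ± 52.5 CPM, adjusted p 0.00958). Fitm1 and Fitm2, which bud droplets from the endoplasmic reticulum, rose by 0.94 ± 0.33 and 0.59 ± 0.20, and Plin5, which ties droplets to mitochondria, fell by 0.91 ± 0.29. The call of Plin5 was lost in 9 of 22 alternatives, 6 of which left out 1 library (high-fat knockout A, C or E or chow knockout C, D or E). The 5 rises were 2 without high-fat knockout A or E or chow knockout D or E, and 3 without high-fat knockout C or D or chow knockout A, B or C. None of the 9 tested PPARG and adipose-type genes was called.

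**Figure D5:**
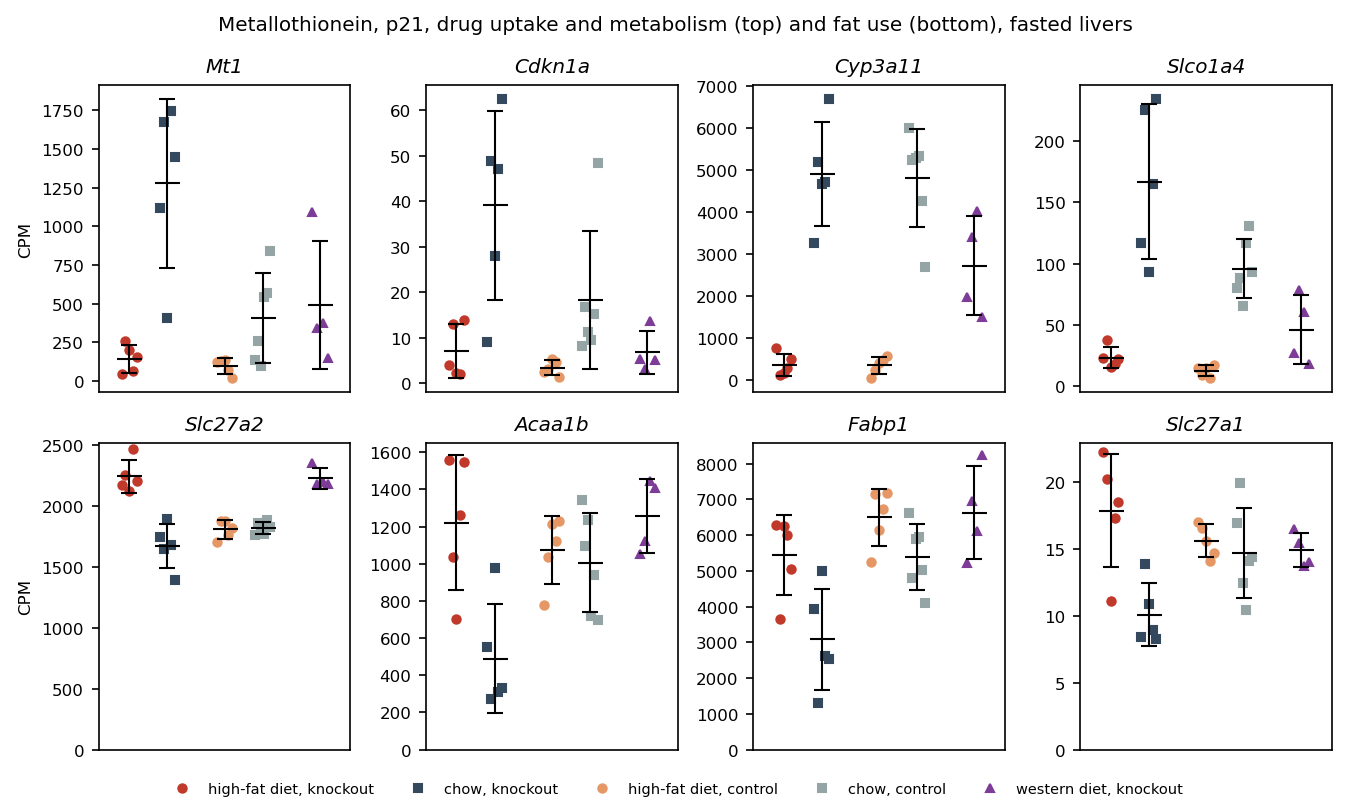
Level in CPM of Mt1, Cdkn1a (p21), Cyp3a11 and Slco1a4 (top) and of Slc27a2, Acaa1b, Fabp1 and Slc27a1 (bottom) in each liver of 5 groups, from left to right high-fat knockouts, chow knockouts, high-fat controls, chow controls and western-diet knockouts, with means and SD. The top genes are lower on high-fat diet in both genotypes, and in the bottom row the chow knockouts have the lowest mean.

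Synthesis of lipids held calls in both directions. Of 26 lipogenesis genes 3 were higher and 2 lower. Calls made up 19.2% of this list, near the 17.6% of all genes. Mlxipl (ChREBP), the carbohydrate-responsive activator, had 238, 134, 148, 172 and 135 CPM in high-fat knockouts, against 73.0, 76.4, 119, 84.3 and 55.4 CPM in chow knockouts (1.02 ± 0.18, adjusted p 0.000642). The desaturase Fads2 rose by 0.64 ± 0.17 and Aacs by 1.76 ± 0.59, while the elongase Elovl5 and malic enzyme Me1 were lower (-0.61 ± 0.18 and -1.08 ± 0.35). Of 26 cholesterol synthesis genes 1 was lower (Pmvk, -0.65 ± 0.19) and none higher, while 23 had a negative log2 fold change (median -0.35, in controls 0.04). Against western-diet knockouts 16 of the 26 were higher and 1 lower in high-fat knockouts (4.87% and 7.3% of all genes), with a median of 0.93. Of 15 sterol export genes 4 were higher. Abcg8, which forms the biliary sterol pump with Abcg5, had 93.8, 111, 81.5, 93.6 and 93.3 CPM, against 50.8, 47.1, 75.7, 41.2 and 32.0 CPM (0.94 ± 0.17, adjusted p 0.000509). Abcg5, whose exons overlap those of Abcg8, rose by 0.64 ± 0.18, the lysosomal cholesterol exporter Npc1 by 0.40 ± 0.13 and the phospholipid remodelling enzyme Lpcat3 by 0.32 ± 0.09. Npc1 fell in controls (-0.43 ± 0.13, adjusted p 0.0306), and the difference between genotypes did not pass (adjusted p 0.145). Of 19 apolipoprotein and VLDL genes 3 were lower, among them Tm6sf2 (-0.97 ± 0.21) and Angptl4. That count was 1 without high-fat knockout A or chow knockout D or E. The 4 sterol export rises were 2 without chow knockout D, and the 2 lipogenic falls were 4 without high-fat knockout E, none without C, and 1 without high-fat knockout A, B or D or chow knockout A, C or E. The call of Me1 was lost in 10 of 22 alternatives.

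Some insulin signalling genes rose. Of 17 insulin signalling genes 4 were higher and none lower. Irs2, the insulin receptor substrate induced in fasting liver, had 15.9, 25.6, 25.7, 40.1 and 14.1 CPM, against 13.6, 6.04, 12.1, 13.6 and 8.61 CPM (1.16 ± 0.25, adjusted p 0.00244), and Socs3, a feedback inhibitor of cytokine signals, 21.4, 8.84, 17.8, 30.4 and 10.0 CPM, against 7.25, 6.66, 6.37, 6.52 and 7.96 CPM (1.34 ± 0.29, adjusted p 0.00301). Grb10 and Pik3r1 were the others (0.79 ± 0.27 and 0.61 ± 0.21), and the count was 2 without chow knockout C or D. Of 17 genes of glycolysis and glycogen 1 was called higher (5.9%, against 8.24% of all genes), 9 had a negative log2 fold change and the median was -0.03. The 1 called was Gys2, the liver glycogen synthase. It had 216, 225, 237, 353 and 206 CPM in high-fat knockouts, against 152, 108, 178, 89.6 and 86.9 CPM in chow knockouts, without overlap (1.01 ± 0.20, adjusted p 0.00165). In controls Gys2 had 140.2 ± 35.6 CPM on high-fat diet and 138 ± 20.3 CPM on chow (0.02 ± 0.19), and the difference between genotypes did not pass (adjusted p 0.306).

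Shares called in the stress, immune and matrix lists lay on both sides of the 17.6% of all genes called. Of the unfolded protein response list 11.5% was called, and of the interferon-stimulated list 18.9%. Of 26 genes of the unfolded protein response 2 were higher, Chac1 and the transcription factor Xbp1 (0.82 ± 0.23), and 1 lower, Atf4 (-0.47 ± 0.14), whereas 13 were higher and 1 lower in controls. Of 20 heat shock genes 3 were higher, Hspd1 (0.48 ± 0.11), Fkbp4 (0.48 ± 0.14) and Hsp90ab1 (0.48 ± 0.17), and 11 in controls. No difference between genotypes was called in either list. The 2 rises of the unfolded protein response were 1 without high-fat knockout C and the count of 1 lower was 0 without high-fat or chow knockout E, and the 3 heat shock rises were 1 without high-fat knockout E or chow knockout D and 7 without chow knockout E. Of 37 interferon-stimulated genes 7 were higher (18.9%, against 8.24% of all genes) and none lower (median 0.43). Among the 7 were Irf1 at 0.51 ± 0.13, Irgm1 at 0.48 ± 0.13, Ifit2 at 0.78 ± 0.20 and Mx2 at 0.80 ± 0.23. That count was 3 without high-fat knockout A or chow knockout E and 4 without chow knockout B, 14 under limma-voom, and 16 when the fit held the chow and high-fat groups alone. Of 30 acute phase genes 3 were higher and 3 lower. The iron hormone gene Hamp had 162, 33.9, 94.7, 22.6 and 15.8 CPM, against 284, 54.4, 334, 611 and 235 CPM (-2.20 ± 0.70, adjusted p 0.0325), and Lbp, which binds bacterial lipopolysaccharide, fell by 0.79 ± 0.18. The acute phase falls were 5 without chow knockout C and 1 without D, and the rises 1 without C.

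Of 19 immediate early genes 3 were higher and 3 lower. Junb, an AP-1 subunit, had 46.0, 64.1, 46.5, 72.5 and 53.6 CPM in high-fat knockouts, against 32.5, 19.4, 31.1, 23.4 and 31.4 CPM in chow knockouts (1.03 ± 0.17, adjusted p 0.000253). Maff rose by 1.14 ± 0.27, and Gadd45g fell by 1.60 ± 0.54. Myc, a driver of growth, had 39.0, 3.20, 18.8, 32.8 and 6.00 CPM, against 4.77, 6.50, 4.09, 9.11 and 8.08 CPM (1.61 ± 0.52, adjusted p 0.0337); replicates A, C and D stood above all chow livers and B and E did not. Its call was lost in 10 of 22 alternatives. Of 23 cell cycle genes cyclin D1 (Ccnd1) was higher (1.5 ± 0.40) and Rrm2 and Pcna lower (-1.02 ± 0.35 and -0.36 ± 0.11), the falls being 0 without high-fat knockout A or D or chow knockout A or D and 1 without high-fat knockout B or C or chow knockout B or E. Of 22 pericentral genes 4 were higher, with Gulo, which in mice makes vitamin C, at 530.2, 551, 564, 474 and 592 CPM, against 351, 348, 341, 292 and 348 CPM (0.69 ± 0.09, adjusted p 4.63e-05), then Lect2 (0.60 ± 0.14), Slc22a3 (0.71 ± 0.21) and glutamine synthetase, Glul (0.35 ± 0.12). The call of Glul was lost in 11 of 22 alternatives. Of 23 hepatokines 2 were higher, Lect2 and Inhbc, and 4 lower, among them Hamp, Angptl4 and Fetub. The pericentral rises were 2 without high-fat knockout E or chow knockout A, C or D, and the hepatokine falls 1 without high-fat knockout A or chow knockout D or E and 2 without high-fat knockout C or E or chow knockout B. The 2 hepatokine rises were 1 without high-fat knockout A, D or E or chow knockout A, B or D. The immediate early falls were 1 without any single library other than high-fat knockout D and chow knockouts A and C.

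Matrix and stellate cell genes bear on the targeted cell. Of 31 tested fibrogenesis genes 2 were higher, Loxl2 and Col4a2, and 3 lower. Ccn2 (CTGF), a matricellular target of YAP and TGF-beta, had 3.95, 5.71, 5.02, 4.03 and 4.61 CPM, against 12.8, 13.1, 14.1, 16.1 and 16.6 CPM (-1.64 ± 0.31, adjusted p 0.00103), a separation without overlap. The 2 rises were none without high-fat knockout E and 1 without high-fat knockout A or D or chow knockout A, C or D. The proteoglycan Lum fell by 0.82 ± 0.20 and the protease Mmp14 fell by 0.65 ± 0.18. Of 24 stellate cell markers 3 were called lower and 1 higher (9.39% and 8.24% of all genes), while 17 had a positive and 7 a negative log2 fold change, with a median of 0.14. Their summed level, to which abundant genes contribute most, was 848 to 1020 CPM in high-fat knockouts and 1040 to 1190 CPM in chow knockouts. Nt5e (CD73) had 4.36, 5.08, 4.88, 7.31 and 4.77 CPM, against 9.27, 12.9, 8.24, 10.4 and 11.8 CPM (-1.01 ± 0.15, adjusted p 0.000135), the proteoglycan Dcn 155 ± 47.0 against 234 ± 13.8 CPM (-0.60 ± 0.13) and the chemokine Cxcl12 336 ± 36.8 against 474 ± 64.3 CPM (-0.50 ± 0.14). The defining markers Lrat, Des and Tcf21 had log2 fold changes of 0.14 ± 0.14, 0.12 ± 0.17 and 0.13 ± 0.22 and did not pass. Ngfr rose by 1.04 ± 0.36. Most markers thus had values opposite in sign to the change in the sum. In bulk liver, fewer cells of a type and less RNA per cell cannot be told apart.

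Of 22 retinoid genes 3 were higher and 4 lower, with the alcohol dehydrogenases Adh4 and Adh1 at 0.66 ± 0.17 and 0.56 ± 0.15, the retinoic acid receptor Rara at 0.72 ± 0.18, the retinal reductase Rdh11 at -0.67 ± 0.17 and Cyp26a1, which degrades retinoic acid, at -1.81 ± 0.51. The retinoid falls were 2 without high-fat knockout A or chow knockout B or D. Of 10 caveolae genes 1 was lower, the coat protein gene Cavin2 (-0.64 ± 0.18), and in controls 1 was lower too. Endothelial genes Kdr (35.4, 31.6, 33.4, 33.1 and 38.4 CPM, against 27.2, 30.6, 23.5, 20.4 and 23.7 CPM, 0.46 ± 0.11), Tie1 (0.68 ± 0.18) and Stab1 (0.47 ± 0.14) were higher. They were 3 of 30 in all (10.0%), near the 8.24% of all genes called higher. Of the 30, 20 had a positive and 10 a negative log2 fold change, with a median of 0.14. The list summed to 659 to 808 CPM in high-fat knockouts and 619 to 713 CPM in chow knockouts.

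Other cell types and quality measures held few called genes, but several of their lists leaned lower on high-fat diet. Of 12 hepatocyte markers Tat and Cps1 were lower, and the list summed to 97300 to 125000 CPM in high-fat and 106000 to 141000 CPM in chow knockouts. Log2 fold changes were negative for 10 of the 12 and positive for 2, with a median of -0.17. None of 19 Kupffer cell genes and none of 6 tested cholangiocyte genes was called, and of 10 tested genes of recruited macrophages 1 was lower (Cd9, -1.01 ± 0.22). Of 17 tested lymphocyte and neutrophil genes 3 were higher (17.6%, against 8.24% of all genes) and none lower, and 4 others were not tested. Of the 17, 10 had a positive and 7 a negative log2 fold change (median 0.24, in controls 0.30). The list summed to 50.4 to 197 CPM in high-fat knockouts and 70.5 to 129 CPM in chow knockouts, which overlapped. The helper T cell coreceptor gene Cd4 had 1.79, 4.32, 3.12, 2.34 and 3.48 CPM, against 0.718, 0.697, 0.335, 0.886 and 0.82 CPM (2.10 ± 0.29, adjusted p 4.63e-05), and the B cell genes Cd79b and Ighm rose by 1.01 ± 0.29 and 0.89 ± 0.29. Of 5 blood genes the globin Hbb-bs was lower (-0.93 ± 0.32) and the heme enzyme gene Alas2 higher (0.55 ± 0.12), with summed levels of 295 to 587 CPM in high-fat knockouts and 456 to 1430 CPM in chow knockouts. Only 2 of 6 adipose, 2 of 12 pancreas and 1 of 7 muscle genes passed the filter on low counts, and the elastase gene Cela1 was called (0.95 ± 0.17). Of 79 ribosomal protein genes 5 were lower, with Rps26 at -0.34 ± 0.10, of 64 nuclear genes of oxidative phosphorylation 4, with Sdhd at -0.47 ± 0.11, and of 8 tested mitochondrially encoded genes 2, mt-Nd5 and mt-Nd6. The ribosomal count was 11 without high-fat knockout C, 1 without high-fat knockout A or chow knockout D, 2 without chow knockout E and 3 without high-fat knockout E or chow knockout C, and the oxidative phosphorylation count 1 without chow knockout D and 2 without high-fat knockout A, B or E or chow knockout B, C or E. The log2 fold change was negative for 74 and positive for 5 of the 79 ribosomal genes (median -0.17). It was negative for 50 and positive for 14 of the 64 oxidative phosphorylation genes (median -0.14). All 8 mitochondrially encoded genes had negative values (median -0.23). In controls these medians were -0.12, -0.16 and -0.25. Mitochondrial reads made up 4.64% to 6.5% of each of the 10 libraries. The part of these measures in the diet differences was not tested.

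The difference of the diet effect between knockouts and controls is the comparison in which a shift between tables that is equal in both genotypes cancels. EdgeR called no gene (0% of 13807), with 1244 genes at an unadjusted p under 0.05, while DESeq2 called 15 genes higher and 3 lower and limma-voom 2 higher. The genes with the smallest p were Gm19572, Rufy4, Dock4, Bcl9 and Dact2. Dock4, an activator of small GTPases, had 18.8, 20.3, 16.4, 21.4 and 17.2 CPM in high-fat knockouts, against 30.6, 30.4, 23.1, 35.4 and 27.9 CPM in chow knockouts (-0.65 ± 0.13), and 27.7 ± 3.40 CPM in high-fat controls, against 24.0 ± 3.92 CPM in chow controls (difference -0.85 ± 0.18, adjusted p 0.145). Bcl9, a coactivator of beta-catenin, averaged 3.36 ± 0.445 and 1.88 ± 0.591 CPM in high-fat and chow knockouts, and 2.15 ± 0.255 and 3.33 ± 1.16 CPM in high-fat and chow controls (difference 1.47 ± 0.32, adjusted p 0.145). Dact2 and the low-expressed Rufy4 and Gm19572 had differences of 1.08 ± 0.24, 3.15 ± 0.65 and 2.52 ± 0.47 (adjusted p 0.145, 0.145 and 0.114). Genes called in knockouts and not in controls are therefore not shown to respond differently.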

How the data were processed

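Bulk RNA-seq read counts per gene were deposited by the authors as 4 tables, unnormalised, with 55416 gene IDs each. Per the submitters' processing notes, reads were handled with STAR 2.7.8a, featureCounts 2.0, FastQC 0.11.9 and MultiQC 1.10.1 on GRCm39; the counting strand was not given in the sources used here. Gene symbols matched 94.0% of the IDs, and 0.522% of counts in the compared libraries lay in IDs without one. The 30 fasted libraries of 6 groups held 6656342 to 21570506 counts.

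Counts were fitted with edgeR 4.0.16 (R 4.3.3; TMM, filterByExpr with a minimum count of 10 and total of 15, robust quasi-likelihood F-test) over those 6 groups, with Benjamini-Hochberg adjustment. Plvap was also tested by exact permutation on log2(CPM + 0.5). Tested on simulated data with 50 genes at each fold, the fit recovered 19, 35, 46 and 49 genes changed 1.5, 2, 4 and 8-fold, with 3 false calls among 13629 genes. DESeq2 1.42.0, limma 3.58.1, other scalings, filters and group sets, a replicate block and fits without each library were alternatives.

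Named genes were Plvap, the 10 largest rises and falls among called genes with a mean of at least 1 CPM and no overlap between groups, for each list with 3 or more calls the 4 members (or fewer) of lowest p among them, and the 5 smallest p of the difference; other list members were given by value. The members and the 38 pathway and 11 marker lists were chosen with earlier results of these data known. Of 128 named genes 14 overlap exons of a gene with at least 10% of their counts (among them Abcg5 and Abcg8, Ccnd1, Dbp, Gadd45a, Hacl1, Hspd1, Junb, Lpcat3, Npc1, Prok1, Rpl23a, Slc22a3 and Ugt1a9), and these, like the close copies of the Cyp3a, Mup, Gst, Acaa1, Ugt and Mt families, are uncertain. Replicate letters did not pair the diets: same-letter livers correlated from -0.056 to 0.094 over 5 pairs. Promoters are RefSeq windows of GRCm38.p6; no genome of the build of the counts was used. Some genes that the rule names are not reported here.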

Additional observations from a re-analysis of the deposited data

Results flagged for a closer look

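Single livers stood apart from the other 4 of their group for 15 of 256 gene and group combinations tested, by Dixon's ratio (above 0.71 for 5 samples). Chance alone marks about 1 in 20 such groups. High-fat knockouts held 11 of them and chow knockouts 4.

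High-fat knockout E had 41.1 CPM of Me1 (the other livers of its group 9.22 to 16.7), 197 CPM of Fkbp4 (136 to 152), 21.02 CPM of Rara (9.97 to 13.1) and 17.3 CPM of Rdh11 (8.14 to 9.36), and was low for Atp5f1 at 347 CPM (439.6 to 458). High-fat knockout B had 10.4 CPM of Nipal1 (0.542 to 3.19), 23.2 CPM of Tm6sf2 (12.4 to 15.2) and 82.0 CPM of Etnppl (22.6 to 31.9). High-fat knockout C had 644 CPM of Hsd3b5 (314 to 393) and 0.203 CPM of Cyp3a44 (0 to 0.0536). High-fat knockout D had 6.56 CPM of Pdk4 (3.33 to 3.55).

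Among chow knockouts, A had 69.3 CPM of Dbp (the other livers 8.16 to 25.5), and E had 924 CPM of Hsp90ab1 (469 to 599.6). Chow knockout D was low for Gulo at 292 CPM (341 to 351), and chow knockout B for Rpl23a at 46.8 CPM (55.6 to 57.9).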

How the results depend on the processing

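Between high-fat and chow knockouts the 1138 genes higher ranged from 710 to 1295 and the 1296 lower from 723 to 1375 over fits that leave out 1 library, both lowest without chow knockout D; with the 2 compared groups alone 728 were lower. Upper-quartile scaling gave 1404 and 1008, and the replicate block 1080 and 1292; the letters only share a name across diets. For the difference between genotypes, where none was called, DESeq2 called 15 higher and 3 lower, no filter 2 higher, limma-voom 2 higher and the replicate block 1 higher, and leaving out 1 library gave 0 to 2 higher and 0 to 1 lower. In controls (627 higher, 679 lower) no filter gave 343 and 436, and limma-voom 1157 and 1171 (in knockouts 1092 and 1289). Leaving out 1 library gave 349 to 767 and 362 to 735 in controls, lowest without high-fat control C. High-fat against western-diet knockouts had 672 genes higher and 249 to 794 without 1 library. Calls in both directions were fewest without high-fat knockout E, and the cause was not tested. Counts of list members in that comparison, such as those of cholesterol synthesis, were not repeated without single libraries. Of 125 called genes named by the rule, 76 were called in every alternative and 49 were lost in 1 or more, and no direction turned round. Among those lost, Decr1 and Rrm2 were not called in 10 of 22 alternatives, Hsp90ab1 in 9, and Fbp1 and Grb10 in 8. Of 64 counts of list members called higher or lower, 22 stayed within 1.5 times in every alternative and 42 moved further in 1 or more, 39 of them when 1 library was left out. Diet and table cannot be told apart, and genes of few counts, such as Fam19a2 and Cyp3a44, have imprecise folds.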
